A study of Triticum aestivum with 24 samples.

Results

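A stretch of wheat chromosome 2A along which transcript levels were lower in 2 of 8 groups of leaf libraries is described here, gene by gene. Its members are the genes with identifiers from TraesCS2A02G238400 to TraesCS2A02G590600 whose normalized count reached 10 in at least 3 of 24 libraries, without 2 identifiers that were left out. There were 1937 members among the 3439 identifiers in that range, or 56.3%, and 60088 of all 107891 identifiers, or 55.7%, reached the same level. The other 1502 identifiers of the range were too low, 717 of them at 0 in every library, and are not described. Among the 1937 members, 1925 reach the level without any library of the 2 lowered groups. The region was selected on the measured values themselves, because its genes were lower in the libraries labelled UBQ well-watered and WT drought. Shifts in those groups are therefore given as a description, without a test.

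RNA was sequenced from leaves of the spring wheat Fielder, labelled WT, and of lines made from it by transformation to express the kinase TOR (target of rapamycin), which couples nutrient and energy status to growth. UBQ well-watered is the line UBQ/TOR at 80% field capacity, and WT drought is Fielder with water withheld. The 6 other groups are the line DREM/TOR and the line DEH2/TOR in both water regimes, UBQ/TOR under drought and Fielder well-watered. Each group has 3 libraries. Per the labels, drought plants got no water for 12 days from an age of 4 weeks. The sources used here do not give the day of leaf sampling, the number of transformation events behind each line or whether replicates came from separate plants, so p-values measure the spread between these libraries, which may be technical.

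Bread wheat is a hexaploid that carries the related subgenomes A, B and D, so most genes of chromosome 2A have similar copies, called homoeologues, on 2B and 2D. Genes that lie side by side on a chromosome are mostly unrelated in function but are inherited together. Wheat is known to tolerate missing or extra chromosomes and chromosome arms, because homoeologues remain. An identifier names the chromosome and counts genes upwards along it. Neither the files nor the name table used here pair the identifiers with gene names, so members are given by identifier and position in this order, with no function. In bulk leaf RNA, fewer cells of a type and less RNA per cell cannot be told apart.

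Normalized counts summed to between 32480000 and 54440000 per library, and the estimated depth was 33700000 to 55300000 reads. Between 523000 and 1830000 of these fell on members. The library labelled WT drought replicate 1 stood apart from its sisters. In it 194 genes were at least 4-fold above both sisters and made up 22.3% of the sum, against 0.848% and 0.654% in the sisters. Only 2 of those genes are members. No marker of leaf cell types could be looked up by identifier. The members were low in UBQ well-watered and WT drought but not in UBQ drought or WT well-watered. The cause was not tested, so each group carries its label as a name only.

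For each gene the shift is the group's mean log2(normalized count + 1) minus the mean of the 3 other groups of the same water regime. A shift of -1 is a level at 0.5 of the others, and the added 1 makes shifts of low genes too small. Median shifts of the members in UBQ well-watered were -0.82, -0.79 and -0.80 for the 3 libraries. In WT drought they were -0.85, -0.83 and -0.83. For the other 18 libraries the deviation was taken from the mean of the 3 groups of their regime that were not lowered. Their own group is part of that mean, which draws them towards 0. Their medians were between -0.02 and 0.05, and no library of the lowered groups overlapped them. The members were chosen for being low in the lowered groups, so nothing is read from this gap. Members held 1.88% to 1.89% of the sum of values in UBQ well-watered libraries, against 3.27% to 3.42% in the other well-watered libraries. They held 1.34% to 1.74% in WT drought, where the lowest share is that of replicate 1, against 3.11% to 3.44% in the other drought libraries.

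**Figure D1:**
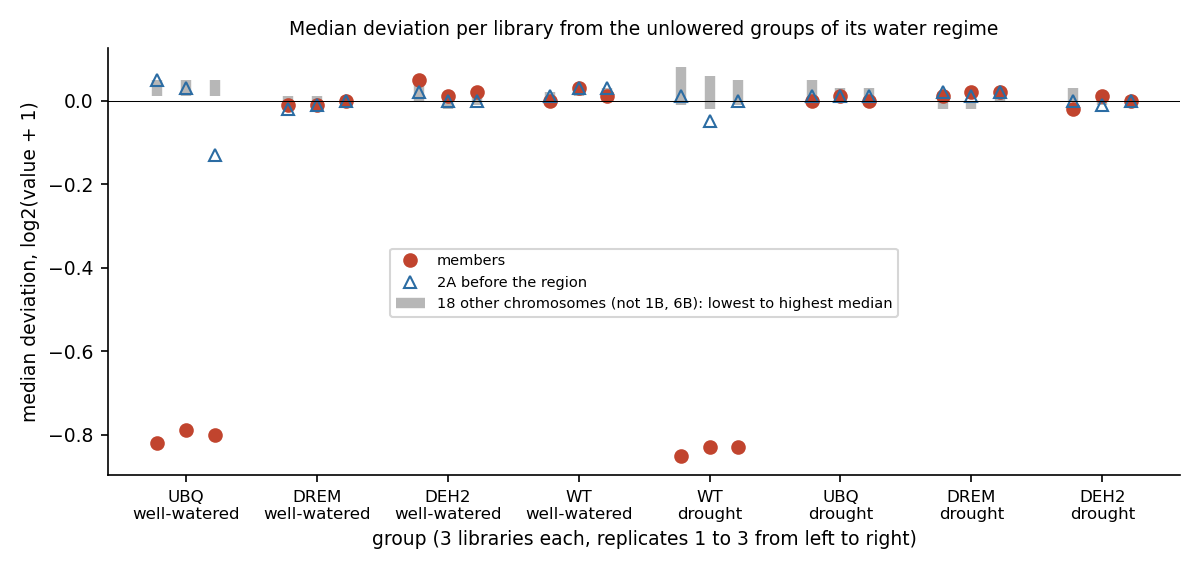
Median deviation of each library, in log2(value + 1), from the groups of its water regime that were not lowered, for the members (filled circles), for the genes of 2A before the region (open triangles) and for the lowest to highest of 18 other chromosomes, all but 1B and 6B (grey bars), with replicates 1 to 3 from left to right in each group. The members lie between -0.85 and -0.79 in the 6 libraries of UBQ well-watered and WT drought and between -0.02 and 0.05 in the other 18.

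The lowering was partial and shared by most members. In UBQ well-watered the median shift was -0.82, a level at 0.568 of the other well-watered groups, and in WT drought it was -0.85, or 0.553 of the other drought groups. Medians of genes outside the region were 0.02 for UBQ well-watered and 0.03 for WT drought. In UBQ well-watered 1581 members, or 81.6%, were lower by at least 0.3, and the background is 22.2% of all tested genes. In WT drought 1451 members, or 74.9%, were lower by as much, with a background of 34%. The rule used these contrasts, so nothing is read from the gap to the background. Members lower by at least 1 numbered 649 in UBQ well-watered (background 5.11%) and 826 in WT drought (background 14.5%). Members higher by at least 0.3 were few, at 97 in UBQ well-watered (background 22.2%) and 217 in WT drought (background 33.1%).

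The whole distribution lay lower, with an SD close to that of other genes and a wider interquartile range. In UBQ well-watered the shifts of members had an SD of 0.69 and an interquartile range from -1.11 to -0.46, and outside genes had an SD of 0.67. The width of that range was 0.65 for members and 0.49 for outside genes. In WT drought the SD was 1.12 and the interquartile range -1.38 to -0.30, and outside genes had an SD of 1.14. Here the width was 1.08 for members and 0.99 for outside genes. WT drought thus had the wider spread among members as well as among genes elsewhere. Members lay below outside genes by a similar amount from the 5th to the 95th percentile. This difference ran from -0.89 to -0.67 in UBQ well-watered and from -0.88 to -0.77 in WT drought. The same held less closely at the tails, with -0.57 and -0.69 at the 1st and 99th percentile in UBQ well-watered and -0.71 and -1.01 in WT drought.

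**Figure D2:**
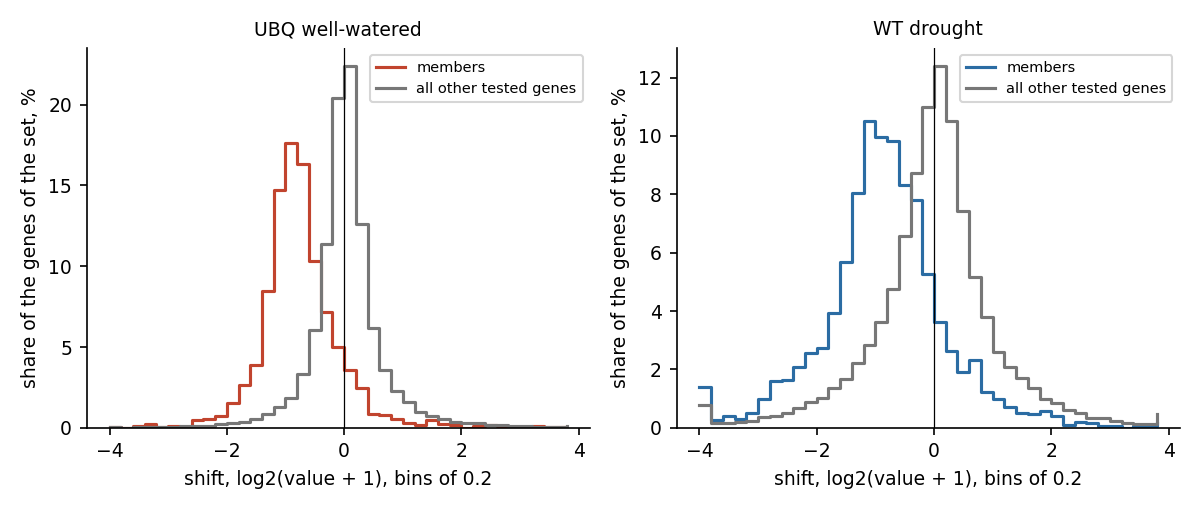
Share of genes, in percent of their set, by shift in bins of 0.2 on the log2(value + 1) scale, for the 1937 members (coloured) and all other tested genes (grey), with values beyond the axis counted in the end bins. The peaks of the members lie below 0, around their medians of -0.82 for UBQ well-watered and -0.85 for WT drought, and the curve of WT drought is wider for both sets.

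Few members were near silence in a lowered group while well expressed elsewhere. A total of 27 members had under 3 reads in every library of both lowered groups, and 0 of these were at 30 or more in all other libraries. In UBQ well-watered 87 members had under 3 reads in each library, and 0 of them were at 30 or more in all other well-watered libraries. In WT drought there were 77 such members, and 2 of them were at 30 or more in all other drought libraries. At the other extreme, shifts at or under -2 were found for 44 members for UBQ well-watered, or 2.27% (0.817% of the genes outside), and 228 for WT drought, or 11.8% (4.41% outside). The band from -1.3 to -0.5 held 1136 members in UBQ well-watered, or 58.6% (9.41% outside), and 765 in WT drought, or 39.5% (15.4% outside).

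Libraries of the lowered groups were separate from the others for a majority of members. All 3 UBQ well-watered libraries lay below all 9 other well-watered libraries for 1100 members, or 56.8% (background 9.49%), and above them for 22 members (background 10.1%). All 3 WT drought libraries lay below the 9 other drought libraries for 1038 members, or 53.6% (background 18.4%), and above them for 93 (background 19.3%). Summed over members, values in UBQ well-watered came to 0.607 of those in the other well-watered groups, and values in WT drought came to 0.629 of those in the other drought groups. The same ratios for genes outside the region were 1.1 and 1.31. The ratio of 1.31 includes WT drought replicate 1, whose values summed to 54350000, against 41680000 and 41770000 in its sisters. Without the 10 most abundant members the ratios were 0.595 for UBQ well-watered and 0.635 for WT drought.

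Along the region the shift stayed low nearly throughout. In 10 consecutive parts of 193 or 194 members, the median in UBQ well-watered was -0.81, -0.90, -0.84, -0.81, -0.91, -0.88, -0.87, -0.77, -0.68 and -0.52 in identifier order. For WT drought the medians were -0.85, -0.88, -0.81, -0.96, -1.01, -0.83, -0.97, -0.70, -0.74 and -0.68. The last 3 parts, from TraesCS2A02G467300 on, were thus the least lowered in both groups. The share of members lower by at least 0.3 ran from 90.7% in the second part to 65.8% in the last in UBQ well-watered, and from 82.5% in the fifth to 63.2% in the last in WT drought. Expression level is not even along the region, with median levels from 104 in the eighth part to 285 in the second. Among members at a level of 100 or more the medians in UBQ well-watered were -0.97 in the fifth part, -0.83 in the first, and -0.86, -0.82 and -0.60 in the last 3, so that only the last part stood apart. In WT drought they were -0.97 in the fifth part and -0.69, -0.72 and -0.54 in the last 3, which were again the least lowered. The spread widened towards the end as well, with an interquartile range of 0.49 in the second part and 0.78 in the last in UBQ well-watered, and of 0.95 and 1.42 for these parts in WT drought.

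Windows of 30 consecutive members give the same picture in finer steps. Of 64 windows, 63 had a median at or under -0.3 for UBQ well-watered and 62 for WT drought. Window medians ran from -1.07, between TraesCS2A02G290200 and TraesCS2A02G294700, to -0.26 in UBQ well-watered. In WT drought they ran from -1.25, between TraesCS2A02G276200 and TraesCS2A02G280700, to -0.26. The highest window was the first of the region in both groups. On 2A before the region, 41 windows had medians from -0.39 to 0.16 in UBQ well-watered and from -0.53 to 0.49 in WT drought. Chromosome 2B had medians over all its tested genes of 0.01 for UBQ well-watered and 0.00 for WT drought, and chromosome 2D of 0.02 and -0.01. The 109 windows of 2B had medians from -0.32 to 0.20 in UBQ well-watered and from -0.50 to 0.39 in WT drought. The 107 windows of 2D ran from -1.22 to 0.25 and from -1.24 to 0.48. The lowest in both groups was the window from TraesCS2D02G584400 to TraesCS2D02G592500, where DEH2 well-watered and DREM drought were high.

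**Figure D3:**
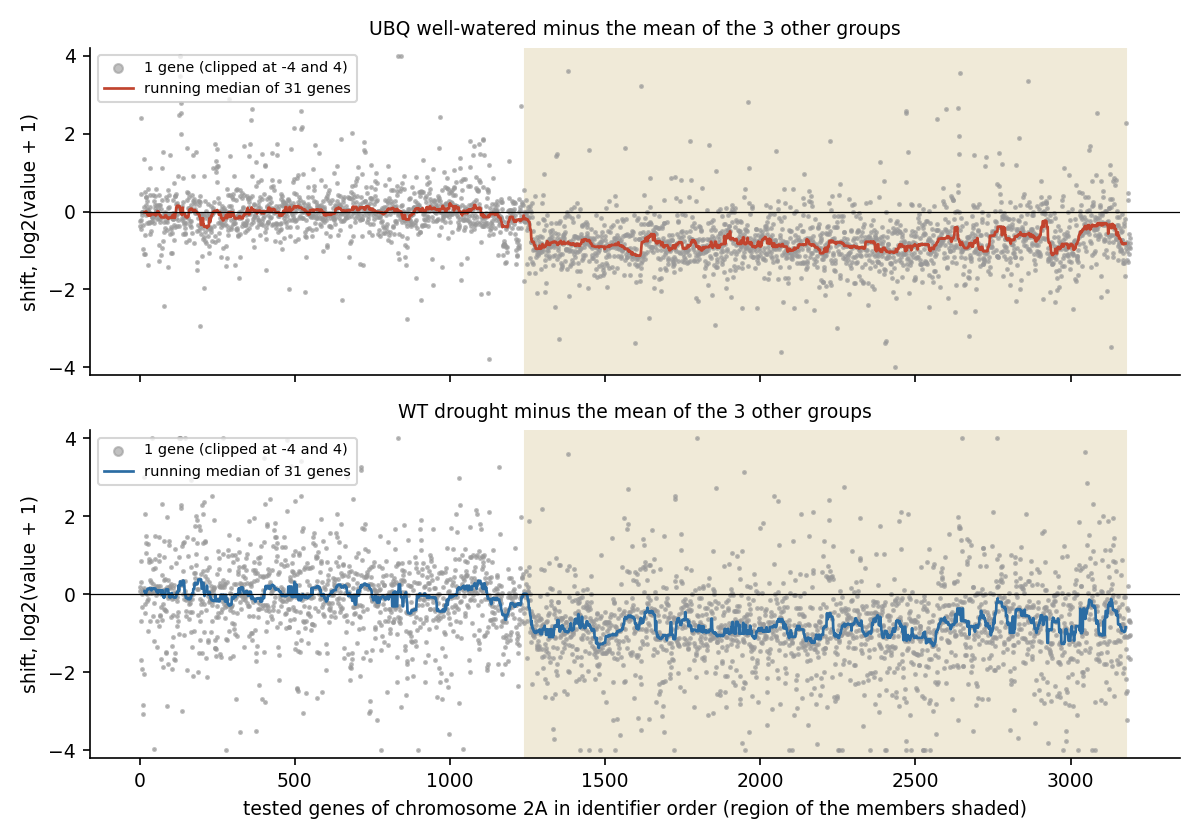
Shift of each tested gene of chromosome 2A in identifier order, in log2(value + 1), for UBQ well-watered (upper) and WT drought (lower), with the running median of 31 genes as a line, 0 marked and the region of the members shaded. The line lies near 0 before the region, stays below 0 through nearly all of it, and comes closest to 0 near its start and in its last parts.

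The start of the lowered stretch lay slightly inside the region. The first 20 members, up to TraesCS2A02G243200, had medians of -0.23 for UBQ well-watered and 0.01 for WT drought, with 7 and 5 of them lower by at least 0.3. From TraesCS2A02G243300 on, 1917 members had medians of -0.82 and -0.87, with 1574 and 1446 lower by at least 0.3. Before the region, shorter patches were lowered in the same groups. The 18 tested genes from TraesCS2A02G226400 to TraesCS2A02G228800 had medians of -0.85 for UBQ well-watered and -0.88 for WT drought, with 15 and 18 lower. The 11 from TraesCS2A02G233800 to TraesCS2A02G235500 had medians of -0.92 and -1.09, with 11 and 9 lower. These patches and the first 20 members were singled out after their values were seen.

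Towards the end of the chromosome no upper limit was found. After the region come 33 identifiers of 2A, of which 13 were tested, and their medians were -0.84 for UBQ well-watered and -1.04 for WT drought, with 11 and 12 lower by at least 0.3. The first member, TraesCS2A02G238400, had shifts of -0.27 for UBQ well-watered and 0.01 for WT drought at a level of 5210, the mean normalized count in the 6 other groups. The nearest tested gene before it, TraesCS2A02G238200, had -1.78 and -0.74 at a level of 31.6. The last member, TraesCS2A02G590600, had 2.26 for UBQ well-watered and -2.55 for WT drought at a level of 137. The next tested gene, TraesCS2A02G590900, at a level of 23.9, had 12.6, 11.6 and 17.5 in UBQ well-watered libraries against 17.5 to 52.1 in the other well-watered ones, and 2.76, 10.8 and 11.2 in WT drought libraries against 9.91 to 26.1 in the other drought ones. Single genes at either limit thus did not show where lowering began.

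Neighbouring members were little alike in how far they were lowered. Across adjacent members, which share libraries, the shifts correlated at r = 0.12 for UBQ well-watered and 0.16 for WT drought (n = 1937 members), no more than the 0.15 and 0.16 on chromosome 2B. The longest run of members that were all lower by at least 0.3 had 45 genes in UBQ well-watered, from TraesCS2A02G387500 to TraesCS2A02G393900, and 34 in WT drought, from TraesCS2A02G277500 to TraesCS2A02G282600. The longest run in which no member was lower by as much had 8 genes in UBQ well-watered, from TraesCS2A02G476000 to TraesCS2A02G477000. The like run of WT drought had 7 genes, from TraesCS2A02G239500 to TraesCS2A02G241700.

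The median shift changed little with expression level in UBQ well-watered once genes above the lowest levels were considered. By level, the mean normalized count in the 6 other groups, there were 446 members under 30, 381 from 30 to 100, 431 from 100 to 300, 436 from 300 to 1000 and 243 at 1000 and over. In this order the median shift in UBQ well-watered was -0.56, -0.79, -0.86, -0.90 and -0.83. The interquartile range was 1.07 under 30 and 0.76, 0.52, 0.45 and 0.50 in the higher classes. The share lower by at least 0.3 was 63.5% under 30 and 91.4% at 1000 and over. The standard error of a single shift was 0.42 at the median under 30, and 0.05 at 1000 and over, where the SD between members was 0.42. Members with high counts thus differed among themselves by more than the replicate error.

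In WT drought the median went the other way, with -0.97, -0.96, -0.91, -0.81 and -0.61 from the lowest to the highest class. Genes outside the region moved with level in the same direction, with medians of -0.15, -0.07, 0.01, 0.09 and 0.21. The members lay below outside genes of their class by -0.81, -0.90, -0.92, -0.90 and -0.82, a nearly level offset. In UBQ well-watered, where outside medians ran from 0.01 to 0.08, this offset was -0.64, -0.81, -0.87, -0.92 and -0.84. The interquartile range in WT drought was 1.62 under 30, 0.80 from 300 to 1000 and 1.10 at 1000 and over. There the standard error of a single shift was 0.05 and the SD between members 1.23, so replicate error is a small part of the spread of abundant members.

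**Figure D4:**
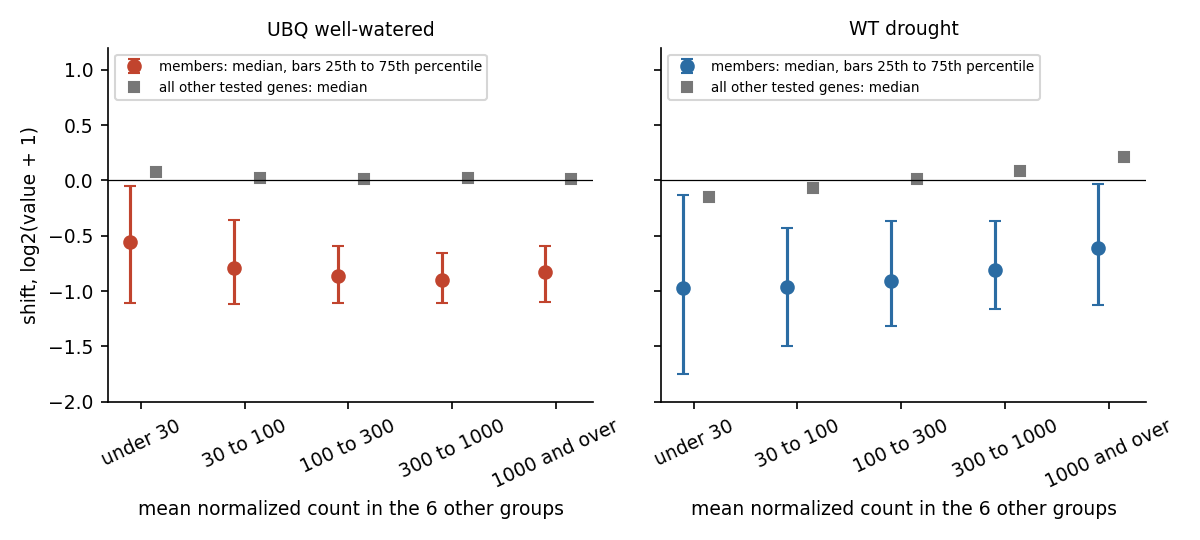
Median shift of members (circles, bars from the 25th to the 75th percentile) and of all other tested genes (grey squares) in log2(value + 1), by the mean normalized count in the 6 other groups, for UBQ well-watered (left) and WT drought (right). Medians of members run from -0.90 to -0.56 in UBQ well-watered and from -0.97 to -0.61 in WT drought, and those of other genes from 0.01 to 0.08 and from -0.15 to 0.21.

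How far a member was lowered in UBQ well-watered corresponded weakly to how far it was lowered in WT drought. The 2 shifts use no common library, and across the 1937 members they correlated at r = 0.14 (Spearman's rho 0.16), against r = 0.07 across the genes outside. Of the members, 1234 were lower by at least 0.3 in both groups, which is 78.1% of those lower in UBQ well-watered and 85% of those lower in WT drought. This is 63.7% of all members, and the product of the 2 separate shares is 61.1%. Of the genes outside, 9.06% were lower in both, with a product of 6.6%. A further 347 members were lower by as much in UBQ well-watered alone, 217 members in WT drought alone and 139 members in neither. By level class the correlation was between 0.03 and 0.31. Shifts at or under -2 in both groups were found for 13 members.

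The most abundant member in each of the 10 parts shows the individual values. In the first part this was TraesCS2A02G247300, at 102600, 102100 and 91410 in UBQ well-watered, against 126600 to 188500 in the 9 other well-watered libraries (median 159400). All 3 libraries were below the others, with a shift of -0.62. Its WT drought values of 30140, 30150 and 31380 were inside the range of 22470 to 52610 of the 9 other drought libraries (median 26160), with a shift of -0.05. In the second part TraesCS2A02G296400 was at 41140, 40130 and 36200 in UBQ well-watered, against 45790 to 75670 in the others (median 58650), a shift of -0.54. Values in WT drought were 16790, 15190 and 15520, within 5264 to 25410 in the others (median 7501), a shift of 0.64. Both genes were thus below all other libraries in UBQ well-watered and inside their range in WT drought.

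In the third part TraesCS2A02G312600 had opposite shifts. It was at 32000, 31510 and 29790 in UBQ well-watered, below all others, which ran from 52030 to 67340 (median 61210), a shift of -0.95. The WT drought libraries held 14460, 14070 and 13750, above all others, which ran from 1239 to 4365 (median 2693), a shift of 2.50. In the fourth part TraesCS2A02G342600 was lowered in neither group. It was at 46670, 45350 and 38400 in UBQ well-watered, against 27070 to 54090 in the others (median 49590), a shift of 0.07. The WT drought libraries held 3395, 3140 and 3464, against 609.6 to 4493 in the others (median 1378), a shift of 1.05, with the groups overlapping in both regimes.

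In the fifth part TraesCS2A02G387000 was the abundant member lowered by a like amount in both groups. It was at 3493, 3770 and 3634 in UBQ well-watered, against 8270 to 10720 in the others (median 8955), a shift of -1.34. In WT drought it was at 1627, 1758 and 1770, against 3056 to 6804 in the others (median 4469), a shift of -1.42. The groups did not overlap in either regime. In the sixth part TraesCS2A02G407700 overlapped the others in both. It was at 21630, 21600 and 19960 in UBQ well-watered, against 20890 to 23890 in the others (median 23330), and at 4258, 3693 and 3725 in WT drought, against 2605 to 4344 (median 2910). Its shifts were -0.11 and 0.31.

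In the seventh part TraesCS2A02G437700 was below the others in both groups and more so in WT drought. It was at 5577, 5406 and 5083 in UBQ well-watered, against 6123 to 10580 in the others (median 8547), a shift of -0.58. Its WT drought values were 1118, 1238 and 1263, against 1765 to 9151 in the others (median 4065), a shift of -1.72. In the eighth part TraesCS2A02G502400 was again below all others in both. Its values were 18130, 17790 and 18580 in UBQ well-watered, against 38620 to 42260 in the others (median 40530), a shift of -1.16. In WT drought they were 13930, 15070 and 14850, against 15280 to 25140 in the others (median 19690), a shift of -0.42.

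In the ninth part TraesCS2A02G525500 had by far its highest values in UBQ drought. It was at 7079, 6732 and 6566 in UBQ well-watered, overlapping the 6196 to 29260 of the others (median 12250), a shift of -1.09. In WT drought it was at 13700, 12140 and 12690, below the 32190 to 240600 of the others (median 53740), a shift of -2.57. The 3 UBQ drought libraries were at 240600, 230000 and 228400. In the last part TraesCS2A02G581000 had opposite shifts. It was at 7625, 7135 and 7325 in UBQ well-watered, below the 14250 to 19800 of the others (median 16310), a shift of -1.16. In WT drought it was at 2968, 2841 and 2806, above the 832 to 2377 of the others (median 896.7), a shift of 1.25.

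**Figure D5:**
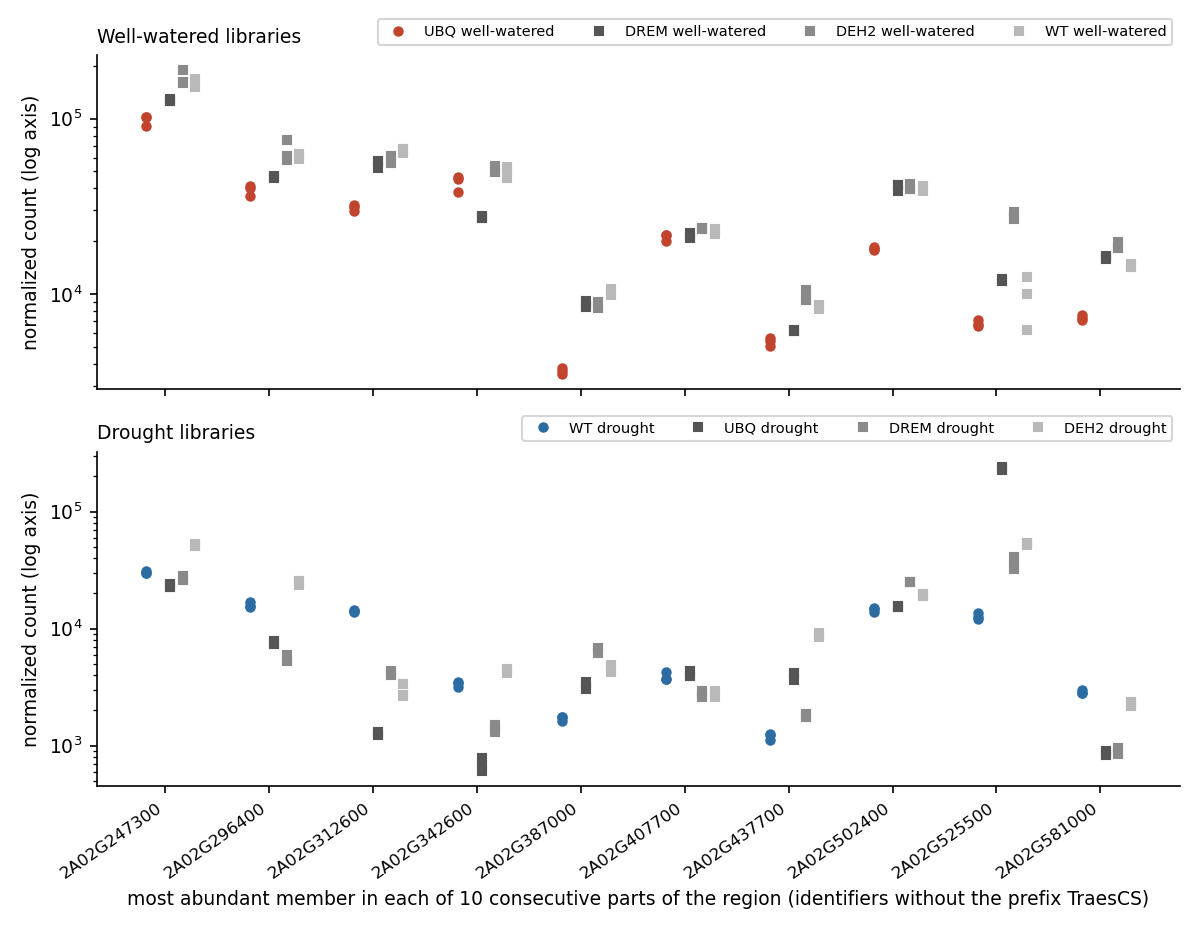
Normalized counts on a log axis of the most abundant member in each of 10 consecutive parts of the region, for the 12 well-watered libraries (upper) and the 12 drought libraries (lower), with 1 point per library. The coloured points of UBQ well-watered lie below all grey points for 7 of the 10 genes, and those of WT drought for 4 of the 10.

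The most extreme shifts are given for members whose lowered group did not overlap the others and whose mean reached 50 in the higher of the 2 sets. TraesCS2A02G284100 was lowest in WT drought, at 0, 5.90 and 8.16 against 497.2 to 1439 in the other drought libraries (median 645.1), and TraesCS2A02G311700 was next, at 0, 0 and 5.97 against 132.7 to 244.8 (median 183.2). The highest in WT drought were TraesCS2A02G323000, at 239.9, 179.2 and 223.6 against 1.40 to 39.8 (median 5.64), and TraesCS2A02G501800, at 2401, 1939 and 2106 against 70.5 to 213.2 (median 98.2). None of these 4 genes overlapped the other drought libraries. The first pair lay between 2.79 and 44.0 in all well-watered libraries, and the second pair between 521.5 and 7544, so WT drought was at or below the well-watered level for the first pair and between the regimes for the second. In UBQ well-watered the lowest by this rule was TraesCS2A02G578900, at 5.56, 6.67 and 1.19, against 9.63 to 631.3 in the other well-watered libraries (median 20.1). Its place rests on DEH2 well-watered, with a mean of 593.2, against 15.55 in WT well-watered and 16.27 in DREM well-watered. Next was TraesCS2A02G256200, at 8.78, 14.2 and 4.96, against 43.1 to 218.7 (median 76.8). The highest were TraesCS2A02G261200, at 1156, 1214 and 884.5 against 0 to 840.7 (median 368), little above DEH2 well-watered with its mean of 779.8, and TraesCS2A02G522100, at 57.8, 88.6 and 51.1 against 0 to 20.9 (median 5.59).

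The same genes could be tested where neither lowered group was involved. Drought changed a share of the members close to that of all genes. In DREM drought against DREM well-watered 672 members rose and 635 fell at a limma adjusted p under 0.05 (Benjamini-Hochberg), 67.5% of the members, with a background of 68.9% (35.2% higher and 33.7% lower). In DEH2 drought against DEH2 well-watered 624 rose and 696 fell, 68.1%, with a background of 69.6% (35.1% higher and 34.5% lower). The median change of members was 0.02 in DREM and -0.01 in DEH2, against 0.03 and 0.01 over all tested genes. A share near the background is not a result about the members.

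Individual members nonetheless responded strongly to drought. TraesCS2A02G467500 was at 2910, 2958 and 3576 in DREM drought against 0, 2.09 and 4.14 in DREM well-watered (limma adjusted p = 2.9e-10). In DEH2 it was at 13680, 13960 and 13790 in drought libraries, against 10.9, 2.79 and 12.3 in well-watered ones (log2 difference 10.28 in DREM with SE 0.68, and 10.68 in DEH2 with SE 0.68). It was at most 12.3 in every well-watered library and high in every drought library, with 1820, 1510 and 1350 in WT drought. TraesCS2A02G476700 rose in DREM to 482.6, 543.9 and 534.3, against 0, 0 and 3.29 in well-watered libraries (limma adjusted p = 4.58e-13). TraesCS2A02G556100 rose in DEH2 to 4706, 4763 and 4941, against 7.01, 11.3 and 12.4 in well-watered libraries (log2 difference 8.77, SE 0.33, limma adjusted p = 7.6e-15). In WT drought TraesCS2A02G556100 stayed at 53.6, 64.0 and 33.7.

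Members that fell furthest in DREM or in DEH2 under drought went close to 0. TraesCS2A02G323000 was at 7.02, 3.35 and 5.64 in DREM drought against 787.8, 744.3 and 807 in DREM well-watered (log2 difference -6.99, SE 0.27, limma adjusted p = 6.76e-17). TraesCS2A02G563400 was at 6.39, 2.28 and 0 in DREM drought against 373.4, 368.8 and 316.9 in DREM well-watered (limma adjusted p = 1.99e-11). Under the other labels this gene had no such fall. Its DEH2 mean rose from 2.91 with water to 184 without. The means before and after this change of regime were 173.2 and 183.1 for UBQ, and 147.1 and 131.6 for WT. TraesCS2A02G565900 was at 0 in all 3 DEH2 drought libraries against 437.4, 375.7 and 401.1 in DEH2 well-watered (limma adjusted p = 4.14e-23). TraesCS2A02G312400 was at 12.0, 5.36 and 3.27 in DEH2 drought against 2575, 2003 and 2088 in DEH2 well-watered (log2 difference -8.29, SE 0.50, limma adjusted p = 5.63e-11). The libraries of each tested DREM or DEH2 comparison did not overlap for any of these 4 genes.

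Between lines under equal watering the members were centred near 0 as well. In DREM against WT, both well-watered, 206 members were higher and 231 lower (22.6%, background 21.3%, of which 9.66% higher and 11.7% lower), with a median difference of 0.00. In DEH2 against WT, both well-watered, 186 were higher and 179 lower (18.8%, background 19.5%, of which 8.98% higher and 10.5% lower), with a median of 0.01. In DREM against UBQ, both under drought, 382 were higher and 373 lower (39%, background 42.8%, of which 20% higher and 22.8% lower), with a median of 0.03. In DEH2 against UBQ, both under drought, 358 were higher and 376 lower (37.9%, background 40.2%, of which 20% higher and 20.2% lower), with a median of 0.00. The lowering was not seen in any of the 6 comparisons that leave out UBQ well-watered and WT drought. This follows in part from the choice of the region, which was selected as low in those groups. Shares near the background are again not a result about the members. UBQ drought and WT well-watered, which carry the labels of the lowered groups, are among the groups compared. DREM and DEH2 share their WT libraries in the first pair of comparisons and their UBQ libraries in the second.

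Of the members that differed most, TraesCS2A02G578900 and TraesCS2A02G563400 set DEH2 well-watered and DREM drought apart from the 6 other groups. TraesCS2A02G578900 was at 561.3, 587 and 631.3 in DEH2 well-watered against 21.0, 16.1 and 9.63 in WT well-watered (log2 difference 5.23, SE 0.43, limma adjusted p = 3.68e-11). It was at 423.6, 453.5 and 391 in DREM drought against 4.39, 6.14 and 8.72 in UBQ drought (log2 difference 5.87, SE 0.43, limma adjusted p = 6.92e-13). In DREM well-watered it was at 9.64, 20.1 and 19.1, and in DEH2 drought at 1.38, 7.82 and 2.63. TraesCS2A02G563400 had the reverse pattern, at 2.28, 4.27 and 2.17 in DEH2 well-watered and 6.39, 2.28 and 0 in DREM drought, and between 109.5 and 373.4 in the libraries of the 6 other groups. In DEH2 against WT, both well-watered, it was lower with a log2 difference of -5.25 (SE 0.43, limma adjusted p = 2.01e-08).

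TraesCS2A02G261200 separated the groups in another way. It was at 2.36, 4.08 and 0 in DREM well-watered against 384.7, 368 and 294 in WT well-watered (limma adjusted p = 2.07e-07). In DREM drought it was at 525.3, 533 and 477.3, against 0, 1.93 and 7.38 in UBQ drought (limma adjusted p = 2.12e-08). This gene was therefore high in 1 water regime and near the floor in the other for both DREM and UBQ, in opposite directions, since UBQ well-watered held 1156, 1214 and 884.5. In DEH2 the gene went in the direction of UBQ, with 840.7, 720.6 and 778.2 in well-watered libraries and 26.1, 8.61 and 14.3 under drought. In WT it was at 282.1, 387 and 377.3 under drought against 384.7, 368 and 294 in well-watered libraries.

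Further named members set UBQ drought apart from DREM or DEH2 drought. TraesCS2A02G427100 was at 16.4, 0 and 1.90 in DREM drought against 973.2, 1101 and 928.3 in UBQ drought (limma adjusted p = 3.33e-09). Next to it, TraesCS2A02G427200 was at 11.6, 1.45 and 0 in DREM drought against 901.5, 1070 and 794.4 in UBQ drought (limma adjusted p = 2.63e-11). In DEH2 drought they averaged 416.8 and 462.3, also below all UBQ drought libraries. TraesCS2A02G480700 was at 0, 0 and 1.65 in DEH2 drought against 85.7, 98.6 and 89.8 in UBQ drought (limma adjusted p = 1.31e-09), and at most 6.53 in every library outside UBQ drought. TraesCS2A02G489500 was at 9.386, 4.104 and 5.945 in DEH2 drought against 260.6, 248.9 and 198.8 in UBQ drought (log2 difference -5.04, SE 0.27, limma adjusted p = 6.64e-16). On the higher side, TraesCS2A02G269700 was at 2225, 2107 and 2118 in DEH2 drought against 339.6, 332.7 and 319.3 in UBQ drought (log2 difference 2.70, SE 0.08, limma adjusted p = 1.32e-22). TraesCS2A02G510400 was at 1570, 1498 and 1457 in DEH2 drought against 216.5, 205.3 and 209 in UBQ drought (log2 difference 2.84, SE 0.15, limma adjusted p = 2.08e-16).

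The remaining named members differed from WT in well-watered plants. TraesCS2A02G393800 was at 239.1, 198.2 and 176 in DEH2 well-watered against 1317, 1425 and 1291 in WT well-watered (log2 difference -2.72, SE 0.12, limma adjusted p = 1.33e-17). It was at most 409.7 in every library other than those of WT well-watered, drought included. TraesCS2A02G495400 was at 161, 129.5 and 144.1 in DEH2 well-watered against 5.89, 3.07 and 2.89 in WT well-watered (log2 difference 4.93, SE 0.51, limma adjusted p = 6.64e-09). In DREM well-watered TraesCS2A02G326100 was at 80.7, 68.4 and 64 against 20.5, 13.7 and 8.64 in WT well-watered, and TraesCS2A02G534600 at 62.0, 54 and 42.6 against 2.942, 23.02 and 13.03 (limma adjusted p = 4.85e-05 and 0.000555). TraesCS2A02G442200 was at 8.96, 1.05 and 1.66 in DREM well-watered against 48.2, 60.9 and 53.1 in WT well-watered (limma adjusted p = 3.07e-06). None of these groups overlapped.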

How the data were processed

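The authors deposited 1 signal value per gene and library, a normalized count that is not a whole number of reads. CASAVA, Trimmomatic, STAR, Salmon and DESeq2 are named, with no versions, in the submitters' processing notes. Genome build, annotation release and strand setting: not given in the sources used here. Also, reads of near-identical A, B and D copies could have been divided between copies. Of genes with a value in 1 library only, 93.0% to 99.5% were whole multiples of the library's step of 1 read (0.651 to 1.54) within 0.01. Over all genes 2.03% to 12.9% were, so no count model was fitted. The floor of 3 reads, a value of 1.95 to 4.63, covers counting error only.

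In R 4.3.3, limma 3.58.1 was fitted to log2(value + 1) of 60088 genes over all 8 groups, with trended and robust variance shrinkage, two-sided, with Benjamini-Hochberg adjusted p under 0.05 over all genes of a comparison. Fold changes on this scale understate those of low genes. The step was checked on simulated data. Further software was the R package data.table (version 1.17.8), Python 3.11.15, pandas 2.3.3, numpy 2.4.6 and matplotlib 3.10.9. The 6 comparisons tested contain neither UBQ well-watered nor WT drought. Replicate numbers are shared between groups, but deviations of same-numbered libraries correlated at -0.06 to 0.02, so the numbers were not taken to pair libraries. None of the 107891 identifiers matched a table of 155467 named wheat genes (IWGSC CS RefSeq v2.1).

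Named members are the most abundant in each of 10 parts, the genes at both limits, at most 2 higher and 2 lower per tested comparison (called, groups apart, mean of at least 50 in the higher group), and by the same sizes the extremes of the 2 lowered groups. Members, lists and rules were chosen with earlier results of these data known. The series' design text speaks of 27 samples and other genotype names, and the groups follow the 24 sample labels. Alternatives were other pseudocounts, filters, scalings, comparison groups and fits, and leaving out each library.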

Additional observations from a re-analysis of the deposited data

Results flagged for a closer look

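The drought change of the members ran in opposite directions in the libraries labelled WT and UBQ. Its median was -0.86 in WT, and -0.86, -0.84 and -0.85 for the 3 WT drought libraries. In UBQ it was 0.82, and 0.82, 0.80 and 0.81 for the 3 UBQ drought libraries. In DREM and DEH2 the medians were 0.02 and -0.01, and genes outside the region had medians between 0.01 and 0.03 under all 4 labels. What drew attention is that every library of one label moved one way and every library of the other moved the opposite way. The difference was not tested, because the members were chosen for being low in WT drought and UBQ well-watered, which fixes both directions. For each of these labels only 1 water regime was lowered. Median deviations of the members were 0.00, 0.03 and 0.01 in WT well-watered libraries and 0.00, 0.01 and 0.00 in UBQ drought libraries. The cause was not tested.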

How the results depend on the processing

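The median shift stayed negative under every alternative run. In UBQ well-watered (-0.82 as reported) it was -0.83 with a pseudocount of 0.5, -0.75 with 5, -0.64 with no filter beyond a value above 0, -0.85 at a mean of at least 30, -0.84 with median ratio scaling, -0.72 against the median of all 4 groups, -0.83 against DREM alone, -0.84 against DEH2 alone and -0.72 from summed values. In WT drought (-0.85) these were -0.87, -0.77, -0.61, -0.83, -0.88, -0.70, -0.87 against DREM alone, -0.83 against DEH2 alone and -0.67 from summed values, with -0.81 after quantile normalization and -0.87 against UBQ alone. Leaving out 1 library gave -0.82 to -0.81 in UBQ well-watered and -0.87 to -0.84 in WT drought, with -0.84 without WT drought replicate 1. The median against all 4 groups includes the lowered group itself, which makes it smaller by construction. For the other alternatives the cause was not tested.

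Abundant members changed sign in WT drought with the group they were set against. TraesCS2A02G247300 was at 0.09 against the median of all 4 groups, 0.41 against UBQ alone and 0.19 against DREM alone. TraesCS2A02G407700 was at -0.07 against UBQ alone, TraesCS2A02G296400 at -0.65 and TraesCS2A02G342600 at -0.37 against DEH2 alone. With the level taken from the other water regime, medians ran from -0.61 to -0.90 in UBQ well-watered and from -1.10 under 30 to -0.47 at 1000 and over in WT drought.

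With the replicate number as a block the 6 comparisons called 1308, 1311, 427, 352, 755 and 732 members in the order given in the report, against 1307, 1320, 437, 365, 755 and 734 without it, and the block changed the call of none of the named members. All counts stayed within 1.5 times of those reported under every alternative. The depth allows no statement on identifiers below the filter, and members under a level of 30 have shifts with a standard error near 0.42.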

Other observations

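The part of chromosome 2A before the region was not level in all libraries. In UBQ well-watered replicate 3 its 1240 tested genes had a median deviation of -0.13, against 0.05 and 0.03 in replicates 1 and 2. The 18 other chromosomes of that library, with 1B and 6B left out, had medians between 0.01 and 0.05. Replicate 3 was the lowest of the 3 libraries in 40 of 41 windows before the region, at a median of -0.17 below the mean of the other two. Within the region it was the lowest in 27 of 64 windows, with a median difference of -0.02. The pattern was noticed in the data, and its source was not tested.

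Of 1888 windows of 30 genes on other chromosomes, 3 had a median at or under -0.5 in UBQ well-watered, 13 had one in WT drought, and 2 of them were low in both. From TraesCS2D02G584400 to TraesCS2D02G592500 the medians were -1.22 for UBQ well-watered and -1.24 for WT drought. That window was at -0.02 against WT well-watered, -0.05 against DREM well-watered and -2.90 against DEH2 well-watered. Under drought it was at 0.00 against UBQ, -3.13 against DREM and 0.00 against DEH2, so its low medians rest on DEH2 well-watered and DREM drought being high. From TraesCS3D02G535200 to TraesCS3D02G540800 the medians were -0.52 and -0.63. That window was at -0.17 against WT well-watered, -0.27 against DREM well-watered and -1.26 against DEH2 well-watered, and under drought at -0.48 against UBQ, -0.91 against DREM and -0.27 against DEH2. The members were low against each of the 3 other groups by similar amounts, with medians from -0.84 to -0.81 in UBQ well-watered and from -0.87 to -0.83 in WT drought.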
